A study of Caenorhabditis elegans with 4 samples.

Results

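The nas (nematode astacin) genes encode astacin metalloproteases, and all genes whose symbol was nas- plus a number were taken from the microarray. The array named 37 of them among 20450 genes, with 106 probes in all, and 36 were protein-coding genes while nas-40 was annotated as a pseudogene. The arrays compared low MV with high MV worms, where MV is maximum velocity, the peak crawling speed of a worm in a short recording. Both groups were wild-type N2 worms kept at 20 °C with food freely available until day 7 to 8 of adulthood, and they were moved to plates without bacteria for the speed measurement. Worms were divided into low and high physical ability, with low defined as an MV below 0.22 mm/sec. The groups thus shared genotype, diet and chronological age and were separated by speed. Each group had 2 replicates, each a 1-colour array of total RNA from whole bodies. The labels do not say how many worms were pooled for an array or whether replicates came from separate cultures, so the p-values measure only the spread between these samples, which may be technical.

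Astacins are zinc-dependent proteases that carry a conserved zinc-binding motif in the catalytic domain and are made as inactive precursors whose prodomain must be removed. Many are secreted, and in C. elegans members of the family are known for breaking the eggshell at hatching, cutting procollagen and releasing the old cuticle at molting. Adult worms no longer molt.

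Values are log2 signals after quantile normalization, which gives all arrays the same distribution, and a fold change is low MV over high MV. Levels were compared only within a gene, because probes differ in how brightly they report. A gene was tested where a probe was present, meaning above the brightness at which dim and bright populations of probes meet, on both arrays of at least 1 group. This left 14 of the 37 nas genes among 12869 genes tested. A gene was called where limma's adjusted p, over all genes tested, was under 0.05 and the change exceeded 1.5-fold. Between 84.6% and 87.7% of spots were well above background on an array, and no spot was saturated. The low MV arrays lay on 1 slide in 1 scan and the high MV arrays on another, so slide, scan and group cannot be told apart for any value given here. Markers of body wall muscle, pharynx, intestine, epidermis, neurons, sperm, oocytes and early embryos all included present probes, as whole bodies would hold.

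Of the 14 tested nas genes, 3 were up-regulated in low MV worms, 5 were down-regulated and 6 were not called. Over all genes tested 21.8% were called higher and 17% lower, 38.8% in either direction. The median log2 fold change of the 14 was -0.05 against 0.01 for all genes tested, so the tested astacins did not move one way as a group. In all 14 the pair of low MV arrays lay wholly above or wholly below the pair of high MV arrays, and this was also true of 83.4% of all genes tested. As whole bodies were extracted, fewer cells of a type and less RNA per cell cannot be told apart in any of these values.

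**Figure D1:**
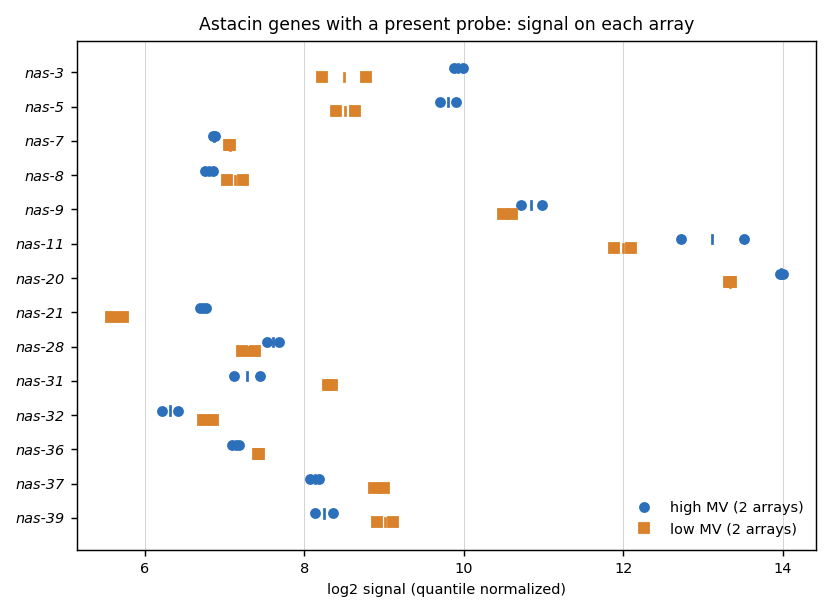
Signal of the 14 nas genes with a present probe, with log2 quantile-normalized signal on the horizontal axis, circles for the high MV arrays, squares for the low MV arrays and short lines for group means. The pairs of each gene do not overlap, nas-3 and nas-5 sit far to the right in high MV, and nas-31 sits to the right in low MV; positions are to be compared within a gene only.

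The down-regulated members were nas-3, nas-5, nas-11, nas-20 and nas-21, for which no individual role is given here. nas-3 (K06A4.1, chromosome V) had log2 signals of 8.22 and 8.77 in low MV and of 9.87 and 9.99 in high MV. Both low MV arrays were below both high MV arrays by more than the low MV arrays differed from each other. The log2 fold change of nas-3 was -1.43 (SE 0.195, limma adjusted p = 0.00311), which is a level 2.70-fold higher in high MV. Its 6 probes were all lower in low MV, by -1.69 to -1.32.

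nas-5 (T23H4.3, chromosome I) had log2 signals of 8.39 and 8.63 in low MV and of 9.70 and 9.90 in high MV. The replicates were close and the groups stood well apart. Its log2 fold change was -1.29 (SE 0.131, limma adjusted p = 0.00155), 2.44-fold higher in high MV, and it rested on 1 probe.

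nas-11 (K11G12.1, chromosome X) had log2 signals of 11.89 and 12.09 in low MV and of 12.72 and 13.5 in high MV. The groups did not overlap, but the high MV arrays (SD 0.558) differed from each other more than the arrays of either group in any other tested nas gene. Its log2 fold change was -1.12 (SE 0.269, limma adjusted p = 0.0174) and was -0.73 without high MV replicate 2, still called. When dim probes were kept in the fit the adjusted p rose to 0.0523 and the call was lost.

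nas-20, nas-21 and nas-22 lie side by side on chromosome V with no other protein-coding gene between them in the RefSeq annotation, and all were lower in low MV. nas-20 (T11F9.3) had log2 signals of 13.34 and 13.32 in low MV and of 13.96 and 14 in high MV, a log2 fold change of -0.65 (SE 0.0895, limma adjusted p = 0.00322). It had the tightest replicates of the called members, and its 4 probes gave log2 fold changes of -1 to -0.63. nas-21 (T11F9.5) had log2 signals of 5.74 and 5.58 in low MV and of 6.70 and 6.77 in high MV, a log2 fold change of -1.08 (SE 0.103, limma adjusted p = 0.00138). It was tested only through its high MV arrays, because both low MV arrays fell below the level that makes a probe present, and its 8 probes gave -1.40 to -0.91. With normexp background correction the nas-21 change shrank to -0.20 and was not called.

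nas-22 (T11F9.6), the last of the 3 neighbours, had no present probe. Its log2 signals were 3.77 and 3.45 in low MV and 5.28 and 5.16 in high MV, well above background on all 4 arrays. The groups stood apart, and its 6 probes were all lower, by -1.61 to -1.30. In a fit without the filter on dim probes, over 20450 genes, its log2 fold change was -1.61 (SE 0.155, limma adjusted p = 0.00988), and it was the 1 member without a present probe called lower there. Whether the probes of these neighbours read each other's RNA was not tested. A second run of neighbours on the same chromosome, nas-18, nas-17 and nas-19, held no called member without the filter on quantile-normalized values. nas-18 had a log2 fold change of -0.37, and nas-17 and nas-19 were not well above background on either high MV array.

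The up-regulated members were nas-31, nas-37 and nas-39. nas-37 (C17G1.6, chromosome X), which is needed to shed the old cuticle at molting, had log2 signals of 9 and 8.87 in low MV and of 8.19 and 8.07 in high MV. The replicates of each group were close and the groups did not overlap. Its log2 fold change was 0.81 (SE 0.104, limma adjusted p = 0.00265), a level 1.75-fold higher in low MV, from 1 probe.

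nas-39 (F38E9.2, chromosome X), the worm relative of tolloid and bone morphogenetic protein 1, had log2 signals of 9.12 and 8.91 in low MV and of 8.36 and 8.13 in high MV. The low MV arrays were both higher. Its log2 fold change was 0.77 (SE 0.130, limma adjusted p = 0.00591), 1.70-fold higher in low MV, from 1 probe.

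nas-31 (F58B4.1, chromosome V) had log2 signals of 8.34 and 8.30 in low MV and of 7.13 and 7.44 in high MV. The low MV arrays were nearly equal and the high MV arrays lay further apart, below them. Its log2 fold change was 1.04 (SE 0.133, limma adjusted p = 0.00265), 2.05-fold higher in low MV, and its 6 probes were all higher, by 0.41 to 1.04.

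Values of the arrays relative to spike-in RNA were also compared, in which the median of all genes moved to -0.38. On that scale nas-37 had a log2 fold change of 0.64 (limma adjusted p = 0.178) and nas-39 of 0.60 (limma adjusted p = 0.213), neither called, while nas-31 and the 5 down-regulated members were called as before, beside 7.40% of all genes called higher and 22.4% lower. With normexp background correction nas-31, nas-37 and nas-39 had log2 fold changes of 0.42, 0.40 and 0.39, with limma adjusted p of 0.00569, 0.00544 and 0.0135 but below 1.5-fold, and 4 of the 5 down-regulated members were called. That correction called 11.9% of all genes higher and 10.1% lower. The sign of each of the 14 tested members was the same under all 18 alternatives run.

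**Figure D2:**
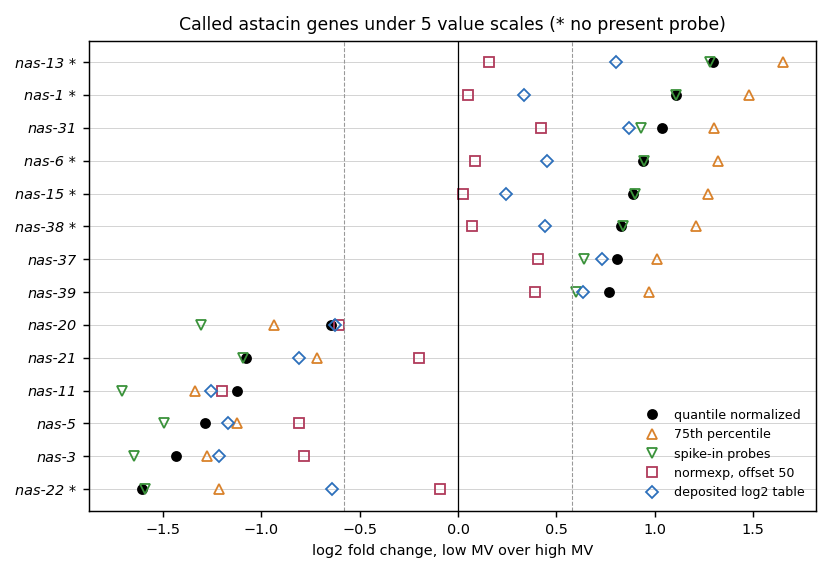
Log2 fold change, low MV over high MV, of the called nas genes under 5 value scales, 1 row per gene, with dashed lines at 1.5-fold and asterisks on genes without a present probe. Open squares, for normexp background correction with an offset of 50, draw close to 0 for dim genes such as nas-21 (-0.20) and nas-22 (-0.09), and no gene changes side.

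The other 6 tested members were not called. nas-36, a molting enzyme like nas-37, had log2 signals of 7.43 and 7.42 in low MV and of 7.19 and 7.10 in high MV. The difference exceeded the spread of the replicates but not the 1.5-fold threshold, with a log2 fold change of 0.28 (SE 0.0928, limma adjusted p = 0.0454). nas-32 had log2 signals of 6.85 and 6.74 in low MV and of 6.42 and 6.22 in high MV, a log2 fold change of 0.48 (SE 0.114, limma adjusted p = 0.0174), also under 1.5-fold. It was tested only through its low MV arrays, and 5 of its 6 probes were higher.

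nas-7, which with nas-6 is known for forming the grinder, the cuticular plates of the pharynx that crush bacteria, had log2 signals of 7.07 and 7.06 in low MV and of 6.86 and 6.88 in high MV. The groups stood apart by little, and its log2 fold change was 0.19 (95% interval -0.03 to 0.42, limma adjusted p = 0.115). nas-8, nas-9 and nas-28 had log2 fold changes of 0.32, -0.30 and -0.31, with limma adjusted p of 0.0548, 0.0896 and 0.0638.

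The remaining 23 members had no present probe. Without the filter on dim probes 5 of these were called higher and 1, nas-22, lower, where 20.5% of all genes were called higher and 14.3% lower. All 37 members together then held 8 called higher and 5 lower, with a median log2 fold change of 0.28. Their signals lay below the level used to call a probe present, and all 6 calls were lost when either low MV array was left out, with nas-1 lost without high MV replicate 1 as well. The changes themselves stayed near their size there, for example -1.77 and -1.44 for nas-22 and 0.85 and 0.80 for nas-38, with limma adjusted p of 0.0686 to 0.109 over the 6 genes. Under normexp none of the 6 was called, with log2 fold changes of -0.09 to 0.16.

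nas-6 (4R79.1, chromosome IV), the grinder protease named above, had log2 signals of 5.54 and 5.74 in low MV and of 4.59 and 4.82 in high MV. The low MV arrays were both higher, and the log2 fold change was 0.94 (SE 0.145, limma adjusted p = 0.0169, without the filter). nas-38 (F57C12.1, chromosome X), known for its part in the quiescence that accompanies molting, had log2 signals of 5.65 and 5.70 in low MV and of 4.79 and 4.91 in high MV. Its replicates were close and its log2 fold change was 0.83 (SE 0.104, limma adjusted p = 0.0128, without the filter). On the spike-in scale nas-6 had 0.95 (limma adjusted p = 0.128) and nas-38 had 0.84 (limma adjusted p = 0.185), changes of about the same size that were not called.

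nas-1 (F45G2.1, chromosome III) had log2 signals of 4.93 and 4.56 in low MV and of 3.54 and 3.73 in high MV, a log2 fold change of 1.11 (limma adjusted p = 0.0172, without the filter). The nas-1 call was lost on the spike-in scale (1.11, limma adjusted p = 0.0710), under normexp (0.05) and in the deposited table (0.34). nas-13 (F39D8.4, chromosome X) had log2 signals of 6.05 and 6.27 in low MV and of 4.60 and 5.13 in high MV, a log2 fold change of 1.30 (limma adjusted p = 0.0208, without the filter). Both genes were higher on each low MV array, with high MV replicates of nas-13 further apart. nas-15 (T04G9.2, chromosome X) had log2 signals of 3.83 and 3.62 in low MV and of 2.89 and 2.78 in high MV, where neither high MV array was well above background. It was estimated 1.85-fold higher in low MV (limma adjusted p = 0.0146, without the filter). Its log2 fold change was 0.02 under normexp and 0.24 in the deposited table. The fold sets the dim arrays at the higher of their own signal and the lowest signal of a probe well above background. That left the nas-15 signals unchanged, so the fold is no lower bound.

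Among the 17 members without a call, nas-10 (K09C8.3) had log2 signals of 4.26 and 4.64 in low MV and of 1.32 and 3.25 in high MV. The low MV arrays were higher, but 1 of the 2 high MV arrays was not well above background and the gene was not called (limma adjusted p = 0.0789, without the filter). As each array was left out in turn, the nas-10 log2 fold change ran from 1.20 to 3.13. On the spike-in scale nas-10 passed the thresholds (2.13, limma adjusted p = 7.62e-05), and under normexp its log2 fold change was 0.07. With dim arrays set the same way, nas-23 was 1.25-fold and nas-19 1.14-fold higher in low MV, and neither was called. These estimates are no lower bounds, with log2 fold changes of 0.01 and 0.02 under normexp. For nas-23, 3 of 6 probes were lower, and nas-19 was measured above background on 1 of 2 low MV arrays. On the spike-in scale nas-19 passed the thresholds (1.27, limma adjusted p = 0.0350). nas-2 and the pseudogene nas-40 were not well above background on any array. nas-2, nas-4, nas-14, nas-17, nas-18 and nas-33 turned direction under at least 1 alternative and have no settled direction.

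**Figure D3:**
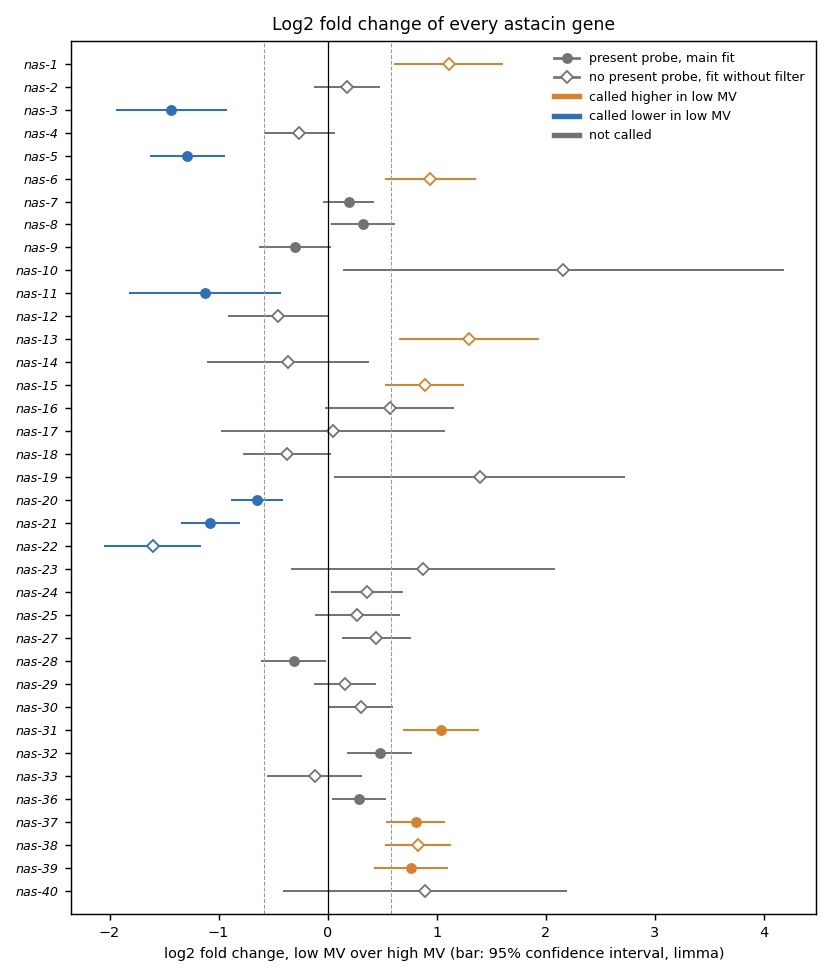
Log2 fold change, low MV over high MV, of all 37 nas genes with 95% confidence intervals from limma. Filled circles are the 14 genes with a present probe, open diamonds the 23 without, from the fit without the filter on dim probes; orange marks called higher, blue called lower and grey not called, and dashed lines mark 1.5-fold. The points of nas-2, nas-10, nas-15, nas-16, nas-17, nas-19, nas-23 and nas-40 rest on at least 1 high MV array not well above background and are no measure of the size of a change.

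By number in the family, nas-1 to nas-6 held 2 tested members, both down-regulated, and nas-7 to nas-15 held 4, of which 1 was down-regulated. The 3 tested members of nas-16 to nas-30 included 2 down-regulated ones. The class of nas-31 and nas-32 held 2 tested members, of which 1 was up-regulated and 0 down-regulated. For nas-33 to nas-38, 2 were tested, with 1 up-regulated and 0 down-regulated. For nas-39 and above, 1 was tested and it was up-regulated. Only genes with a nas symbol were counted. The astacins with another name, hch-1 (called higher), dpy-31 (called lower) and toh-1 (not called), were thus left out of these counts. Their place among the classes was not examined, and counting them could change a class, also one without a down-regulated member. Without the filter the counts were 2 higher and 2 lower for nas-1 to nas-6, and 2 higher and 0 lower for nas-7 to nas-15. For nas-16 to nas-30 they were 0 higher and 3 lower. They were 1 higher and 0 lower for nas-31 and nas-32, 2 and 0 for nas-33 to nas-38, and 1 and 0 for nas-39 and above. These are counts of few genes set beside 21.8% called higher and 17% lower over all genes, and no difference between the number classes was tested.

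By chromosome, 14 members lie on chromosome V and 8 on chromosome X. On chromosome X 3 were tested, with 2 up-regulated and 1 down-regulated, and without the filter 5 of 8 were called higher. Chromosome X as a whole also held more genes called higher, 36.5% of those tested and 32.9% without the filter, with 13% and 11.3% called lower. On chromosome V 6 were tested, with 1 up-regulated and 3 down-regulated, where 23% of all tested genes of that chromosome were called higher and 21.6% lower.

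Probes of the same gene read the same direction for all members called in the main comparison that had more than 1 probe, namely nas-3, nas-20, nas-21 and nas-31. nas-13 was the called member whose probes differed, since 2 probes were well above background on all arrays and gave 1.30 and 1.19, and the other 5 were not well above background on any array and gave -0.57 to 0.55. Of the uncalled members, nas-25 had 4 probes higher and 2 lower, between -0.23 and 0.27, and nas-29 had 1 higher and 5 lower, between -0.60 and 0.16.

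**Figure D4:**
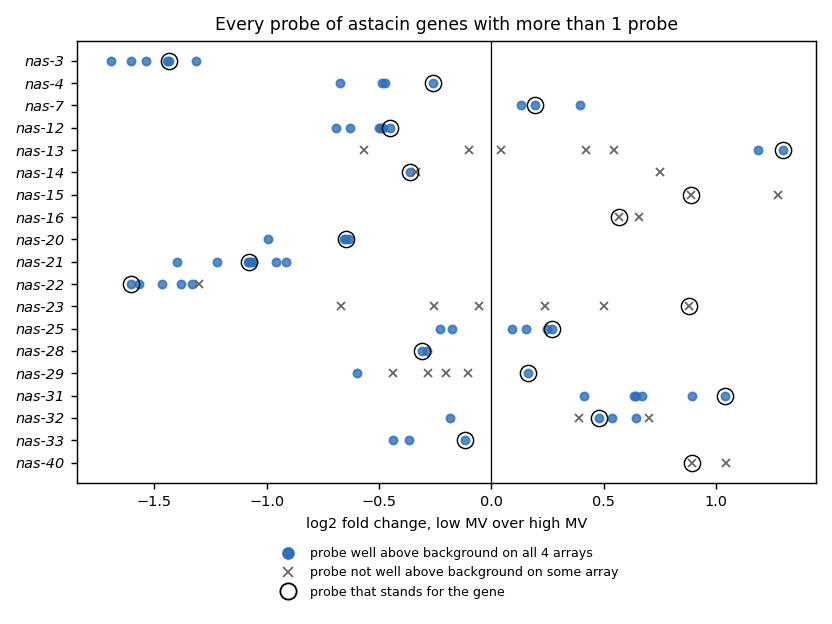
Log2 fold change, low MV over high MV, of every probe of the nas genes with more than 1 probe; dots are probes well above background on all 4 arrays, crosses the others, and rings the probe that stands for the gene. The probes of nas-3, nas-20, nas-21, nas-22 and nas-31 lie on one side of 0, and those of nas-13, nas-23, nas-25 and nas-29 lie on both.

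Astacins with another name were set beside the nas genes. hch-1, the hatching enzyme that frees the larva from the eggshell, had log2 signals of 13.87 and 13.75 in low MV and of 12 and 11.78 in high MV. Its log2 fold change of 1.92 (SE 0.119, limma adjusted p = 0.000739) was larger in size than that of any tested nas gene. dpy-31, which cuts the C-terminal propeptide from cuticle procollagen, had log2 signals of 9.68 and 9.49 in low MV and of 10.33 and 10.50 in high MV, a log2 fold change of -0.83 (SE 0.120, limma adjusted p = 0.00364). The 2 enzymes were called in opposite directions. toh-1 had a log2 fold change of -0.12 (limma adjusted p = 0.433), with 7 probes between -0.71 and 0.06. toh-2 was not matched by name and was not analysed here.

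Lists of genes drawn up for making and shedding the cuticle were counted in the same fit. The counts of these and the following lists stand beside 21.8% of all genes called higher and 17% lower, which were 7.40% and 22.4% on the spike-in scale and 11.9% and 10.1% under normexp. Of 16 molting genes tested, 8 were up-regulated and none down-regulated, either by limma or by the methods' t-test, with a median log2 fold change of 0.70, and 7 were called higher on the spike-in scale. Among them, the cuticle collagen genes rol-6 and dpy-7 had log2 fold changes of 2.78 and 1.75, and acn-1 and the patched-related gene ptr-4 of 2.05 and 2.01. rol-6 was below the level of a present probe on both high MV arrays, so it was tested only through the group where it was high. Of 12 tested genes listed for collagen processing, 4 rose and 1 fell, though on the spike-in scale 1 was called higher and 0 lower. mlt-11 (2.11), the prolyl 4-hydroxylase subunits dpy-18 (1.13) and phy-2 (0.65) and the proprotein convertase kpc-1 (0.93) were up-regulated. The proprotein convertase aex-5 (-0.58) was down-regulated. A part of kpc-1 or aex-5 in the cuticle is not shown here. The convertase bli-4 (-0.14) and dpy-5 (0.79), which is not a convertase, were on the list and not called. Of 5 molting regulators, 3 rose, the nuclear hormone receptors nhr-25 (1.32) and nhr-67 (0.88) and the period homologue lin-42 (0.87), and 1 of the list was called higher on the spike-in scale.

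The 8 epidermis markers tested included 5 up-regulated and 1 down-regulated, the adult collagen gene col-19 at -3.57, and the list shared nhr-25, dpy-7 and rol-6 with the lists above. Summed over the list, the epidermis signal was 14.40 on each low MV array against 14.38 and 14.25 on the high MV arrays, in log2. Sums of signal, here and below, are set mostly by the brightest probes of a list and do not measure the level of a whole tissue. Of 7 body wall muscle markers tested, 4 were down-regulated and 1 up-regulated, against 1 and 0 by the methods' t-test and 2 and 0 under normexp, and their summed log2 signal was 13.34 and 13 in low MV against 13.90 and 13.85 in high MV. The 1 up-regulated marker, unc-89, was tested only through the low MV arrays. The part of these tissues in the nas values was not tested.

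Grinder and pharyngeal cuticle genes had 3 tested of 14 listed, all up-regulated. They were the abu genes abu-13 (1.31) and abu-14 (1.30) and the pharynx regulator pha-4 (1.27), which is also on the early embryo list. By the methods' t-test 2 of these 3 were called higher, and under normexp 1. Of 9 pharynx markers 5 had no present probe, and the 4 tested were up-regulated, at 1.23 to 2.04, of which phat-2 (1.23) was tested only through the low MV arrays. On the spike-in scale 3 of these 4 markers were called higher, and 3 under normexp. The summed log2 signal of the 4 was 12.85 and 12.67 in low MV against 11.25 and 11.56 in high MV. The part of pharyngeal RNA in the values of nas-6 and nas-7 was not tested.

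hch-1 is known to act in embryos, which adult worms can carry. None of 9 oocyte markers was called in the main comparison or by the methods' t-test. Of these, puf-3 (-0.36, limma adjusted p = 0.0232) and cpg-2 (-0.34, limma adjusted p = 0.0319) missed only the 1.5-fold threshold. The median of the list was -0.21, and 1 of the list was called lower on the spike-in scale. Of the early embryo markers tested, 4 of 9 were up-regulated and 2 down-regulated, with a summed log2 signal of 13.20 and 13.14 in low MV against 12.70 and 12.69 in high MV. On the spike-in scale 1 of the embryo markers was up-regulated and 1 down-regulated. The part of carried embryos in the hch-1 value was not tested. Of the other marker lists, 3 of 8 neuron markers were up-regulated, or 1 on the spike-in scale, under normexp or by the methods' t-test. Of 9 intestine markers 2 were down-regulated and 0 up-regulated, but the median log2 fold change of the list was 0.32. Under normexp or by the methods' t-test 1 intestine marker was called lower. None of 3 sperm markers was called in the main comparison or by the methods' t-test. The sperm genes gsp-3 (-1.19) and msp-3 (-2.26) were lower at an unadjusted limma p under 0.05, and 2 of the list were called lower on the spike-in scale. gsp-3 was tested only through the high MV arrays.

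Of 23 other extracellular metalloproteases tested, of the ADAM, ADAMTS, matrix metalloprotease and neprilysin families, 6 rose and 4 fell, with a median log2 fold change of 0.20 that became -0.40 on the spike-in scale. On that scale 4 rose and 4 fell, and under normexp 1 rose and 0 fell. The matrix metalloprotease zmp-5 (1.77) and the neprilysin nep-26 (1.31) were higher in low MV, and the neprilysin nep-3 (-1.23) and the ADAMTS protease mig-17 (-1.21) lower, both tested only through the high MV arrays. Among the other called genes of the list, nep-4 (-0.63) was also tested only through the high MV arrays. nep-11 (1.13) was tested only through the low MV arrays. The list of metalloprotease inhibitors and TGF-beta ligands had 9 genes tested, among them tim-1 and chdp-1, which are neither and were not called. Of the 9, 3 rose and none fell, the ligands daf-7 (1.71), unc-129 (1.59) and dbl-1 (0.92). On the spike-in scale 2 of the list were called higher and 1 lower. daf-7 was tested only through the low MV arrays. TGF-beta ligands are listed here because tolloid-like astacins act in that pathway in flies and vertebrates.

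**Figure D5:**
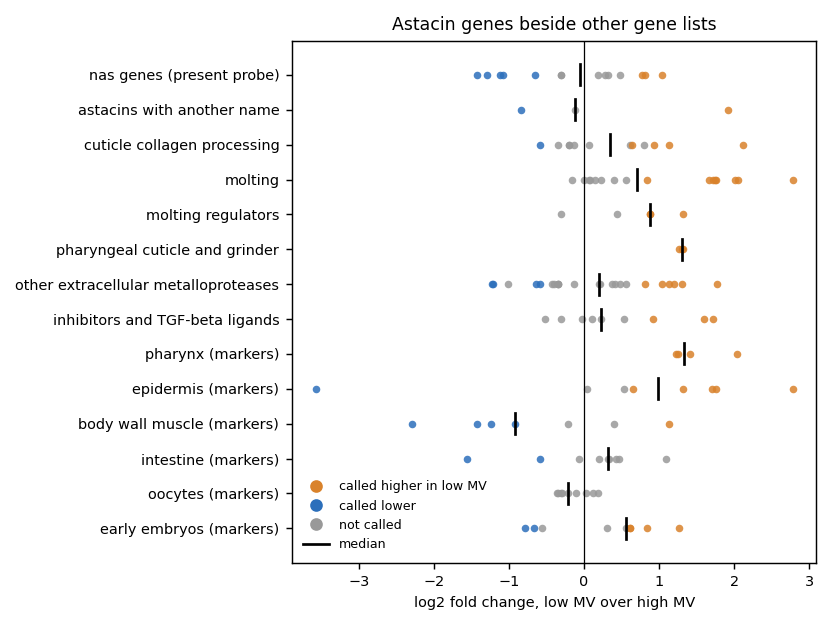
Log2 fold change, low MV over high MV, of each tested gene in the nas family, the comparison lists and the tissue marker lists; orange dots are called higher, blue lower, grey not called, and black bars are medians. The nas genes spread to both sides with a median of -0.05, and the molting list sits to the right with a median of 0.70.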

How the data were processed

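RNA from 2 low MV and 2 high MV samples was labelled with Cy3 and hybridized to Agilent 4x44K C. elegans arrays. Scanner intensity values were deposited per spot as made by the authors with Feature Extraction 11.5.1.1, and the array annotation is of an older genome build, so only names were used. The authors also deposited a table of log2 values, which was rebuilt as quantile-normalized log2 median signal to within 5e-09. Spot flags deposited by the authors removed 62 outlier probes.

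Here, log2 processed signals of 43803 non-control spots were quantile normalized, as the study's methods state, and spots of a probe were averaged. Present probes were those above the meeting point of 2 Gaussian curves fitted to each array, at 6.65 to 6.67. The brightest present probe stood for a gene. Names were matched to RefSeq WBcel235, where 22721 systematic names of the array matched and 620 were kept as sequence names. limma 3.58.1 in R 4.3.3 (lmFit, eBayes, Benjamini-Hochberg over 12869 genes) replaced the study's integrative permutation test, since with 2 arrays a group its null contains the real grouping. An exact two-sided permutation test of 2 against 2 cannot go below p = 0.333. The fit was tested on simulated data.

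Members and gene lists were chosen with earlier results of these data known. All members were accounted for, and called members and those of known role were named. The other genes named were up to 4 of each list with the largest called change. The genes aex-5, bli-4, dpy-5, col-19, phat-2, unc-89, nep-4, nep-11, tim-1, chdp-1 and the oocyte and sperm genes were chosen after their values were seen. The 18 alternatives covered scaling, background, filter, probe choice, test, threshold, replicate block and leaving out each array, and fits of dim members on other scales were added after seeing the data. The number of arrays limits the precision.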

Additional observations from a re-analysis of the deposited data

How the results depend on the processing

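The count of nas genes called higher, 3, became 5 when arrays were scaled to the 75th percentile (nas-8 at 0.63 and nas-32 at 0.80 were added), 1 on the spike-in scale, 0 under normexp (adjusted limma p under 0.05 in all 3 but under 1.5-fold), 8 without the filter on dim probes, 8 with a filter on spots well above background, 0 with the methods' t-test after Benjamini-Hochberg adjustment (3 unadjusted) and 1 at a 2-fold threshold. Over all genes the shares called higher were 24.4%, 7.40%, 11.9%, 20.5%, 22.9%, 6.25% and 9.98% under these, in that order. The count called lower, 5, became 2 with the adjusted t-test (5.98% of all genes), which lost nas-3, nas-5 and nas-11, 4 under normexp (10.1%), at 2-fold (7.18%) and with the unadjusted t-test (14.8%), and 6 with the filter on spots well above background (15.9%). The median log2 fold change of -0.05 became 0.23 at the 75th percentile, 0.28 without the filter and 0.28 with the background filter, where dim members enter, and the cause of the other shifts was not tested. Leaving out each array in turn gave 3 to 3 higher, 5 to 5 lower and a median of -0.10 to 0.02. With the replicate number as a block, the counts were 3 higher and 5 lower, and the calls of all genes went from 2808 to 2836 higher and from 2189 to 2194 lower. Deviations of samples sharing a number had a correlation of -0.04 over all genes tested. With 1 difference per group, this cannot settle whether the numbers pair the samples. Over the 14 tested genes and all alternatives, 233 values kept their side of the thresholds, 17 lost a call, 2 gained one and 0 changed sign.

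The fits of members without a present probe under other scales, without the filter, were chosen after seeing the data. Of the 6 called without the filter, normexp called none (-0.09 to 0.16). The spike-in scale called nas-13 and nas-22, and the deposited table nas-13 (0.80) and nas-22 (-0.64). The spike-in scale also called nas-10 and nas-19, which were not among the 6.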
